A study of Mus musculus with 16 samples.

Results

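The interferon gamma induced GTPases followed here were 10 mouse genes, namely the guanylate-binding protein (GBP) genes Gbp2, Gbp3, Gbp4, Gbp5 and Gbp7 and the immunity-related GTPase (IRG) genes Igtp, Irgm1, Irgm2, Tgtp1 and Iigp1. They were chosen by gene symbol, as a family, at a time when the higher levels of Gbp5 and Gbp7 in trained than in untrained tumor-bearing mice were already known. All 10 were among the 35415 genes of the deposited files. All 10 also passed the filter on low counts, as did 14749 genes in all.

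GBP and IRG proteins are GTP-binding proteins that cells make in large amounts after interferon gamma binds its receptor. The receptor signals through the kinases Jak1 and Jak2, and the response acts on genes that carry GAS elements (gamma-activated sites) or interferon-stimulated response elements (ISRE), the latter bound by factors such as Irf1. The proteins are best known from infected cells, where they gather on vacuoles that hold parasites or bacteria and help to break them open. In healthy skeletal muscle they are not among the characteristic proteins of the fiber.

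The libraries came from the gastrocnemius muscle of male wild-type BALB/c mice, bought at 8 weeks of age. Group C received saline and no training, and group E received saline and treadmill training at 14 m/min for 60 min a day on 6 days a week for 4 weeks. Group T was inoculated under the skin of the left dorsolateral hind limb with CT26 cells, a mouse colon carcinoma line, and group TE received the same inoculation and the same training. The untrained groups were placed on a stationary treadmill. The study kept 12 mice per group and sequenced muscle of 4 mice per group, given by the labels as biological replicates. A tumor did not form in every TE mouse of the study, and neither the tumor status of each sequenced mouse nor the side of the sampled muscle was stated.

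The promoter sequences are shown because every gene with an entry held an ISRE core in at least 1 promoter window. RefSeq gave a promoter window, from 250 bases before to 50 bases after the transcription start, for 8 of the 10 genes (table build GRCm38.p6), with 2 windows for Gbp3 and no entry for Gbp4 and Iigp1, and each window was found once in GRCm39. The 30 bases around the ISRE core (GAAANNGAAA, searched on both strands and shown as its reverse complement where it lies on the other strand) follow in the direction of transcription. Capitals mark the ISRE core and, where it lies within the same stretch, the GAS element (TTCNNNGAA).
Tgtp1: ccatTTCCAGGAAtcGAAACTGAAAcctac
Igtp: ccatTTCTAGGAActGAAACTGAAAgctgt
Irgm2: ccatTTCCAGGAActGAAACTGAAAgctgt
Irgm1: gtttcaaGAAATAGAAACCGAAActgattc
Gbp2: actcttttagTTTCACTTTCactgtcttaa
Gbp3: gacacagTTTCAGTTTCTATTTCccagatc
Gbp5: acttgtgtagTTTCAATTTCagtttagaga
Gbp7: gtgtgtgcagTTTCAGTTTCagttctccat

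These stretches lay at chr11:48883136-48883165 on the minus strand for Tgtp1, at chr11:58090333-58090362 on the plus strand for Igtp and at chr11:58105724-58105753 on the plus strand for Irgm2. The Irgm1 stretch was at chr11:48762255-48762284 on the minus strand. The GBP stretches were all on the plus strand, at chr3:142326355-142326384 for Gbp2, chr3:142265753-142265782 for Gbp3, chr3:142202520-142202549 for Gbp5 and chr3:142236034-142236063 for Gbp7. Each lay upstream of its RefSeq start, and all but the Irgm2 stretch also touched an exon of another annotated transcript of the same gene (GENCODE vM39). An ISRE core was present in 8 of the 9 windows, all but the second Gbp3 window, against 3.44% of all 32851 promoter windows in the RefSeq table. A GAS element was present in 5 of the 9 windows (those of Gbp5, Gbp7, Tgtp1, Igtp and Irgm2), against 8.3% of all windows. In Tgtp1, Igtp and Irgm2 the GAS element directly preceded the ISRE core, at the same spacing, starting at base -88, -45 and -75 from the RefSeq start. A match of letters is a description and was not tested for binding.

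The genes form clusters. Gbp5, Gbp7, Gbp3 and Gbp2 lay within 144.0 kb of chromosome 3 (142199739 to 142343779, GRCm39) in that order, all on the plus strand. Gbp4 lay on chromosome 5 (105263633 to 105287609), where its annotation overlaps that of Gbp8 and Gbp9. Irgm1 (48752795 to 48763164) and Tgtp1 (48876154 to 48884999) lay near each other on chromosome 11, and Igtp (58089840 to 58098417) and Irgm2 (58090444 to 58113615) overlapped further along the same chromosome. Iigp1 lay on chromosome 18 (60506680 to 60525706). Close copies can share reads, so the share of 150-base windows of each gene's main transcript that also occur in another GBP or IRG gene was counted. It was 75.8% for Tgtp1, whose windows recurred in Tgtp2 and in Gm12185, an IRG gene that overlaps Tgtp1, 2.53% for Igtp, 0.479% for Irgm2 and 0.0456% for Gbp4. For the other 6 genes it was 0%. The counts of Tgtp1 are therefore uncertain, and they were also tested together with those of Tgtp2, though not with those of Gm12185.

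Libraries held 35628211 to 37635741 counts, so that 3 counts were at most 0.0875 CPM (counts scaled to library size). Skeletal muscle fiber markers summed to 121000 to 146000 CPM in every library. The sum over T and NK cell markers was at most 15.3 CPM in 15 libraries and 30.5 CPM in TE replicate 4, whose B cell markers (51.3 CPM) and lymph node markers (112 CPM) were also the highest of all 16. C replicate 3 and E replicate 1 had the next highest lymph node sums, 41.6 and 36.8 CPM. Among the members of the lists of other cells, Madcam1 of lymph node vessels was at 0 in 13 libraries and Ly6g of neutrophils in 11. Results are given with and without the 3 lymph node libraries where this changed a call. In bulk muscle, a change in the number of cells of a type and a change in RNA per cell cannot be told apart.

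All 10 GTPases were detected in all 16 libraries. Their mean levels lay between the 38.4 and 71.4 percentile of the tested genes. Per transcript length, in FPKM (fragments per kilobase of gene, scaled to library size, as deposited), the order of means over the 16 libraries was Gbp4 at 7.77, Irgm1 at 7.75, Iigp1 at 6.15, Igtp at 5.66, Gbp2 at 5.49, Gbp7 at 4.08, Irgm2 at 4.05, Gbp5 at 3.24, Gbp3 at 2.54 and Tgtp1 at 1.60. Several neighbours in this order were not separated. Igtp was above Gbp2 in 6 of 16 libraries and Gbp7 above Irgm2 in 8 of 16, whereas Gbp2 was above Gbp7 in 16 of 16. The order depended on the group. Irgm1 led in C, E and T, at 7.50 ± 0.872, 7.75 ± 0.539 and 7.63 ± 0.659 FPKM (SD, n = 4 each). In TE it stood below Gbp4 and Iigp1, and Gbp4 led at 12.1 ± 1.21 FPKM, above Irgm1 in the 4 TE libraries and in no other library.

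**Figure D1:**
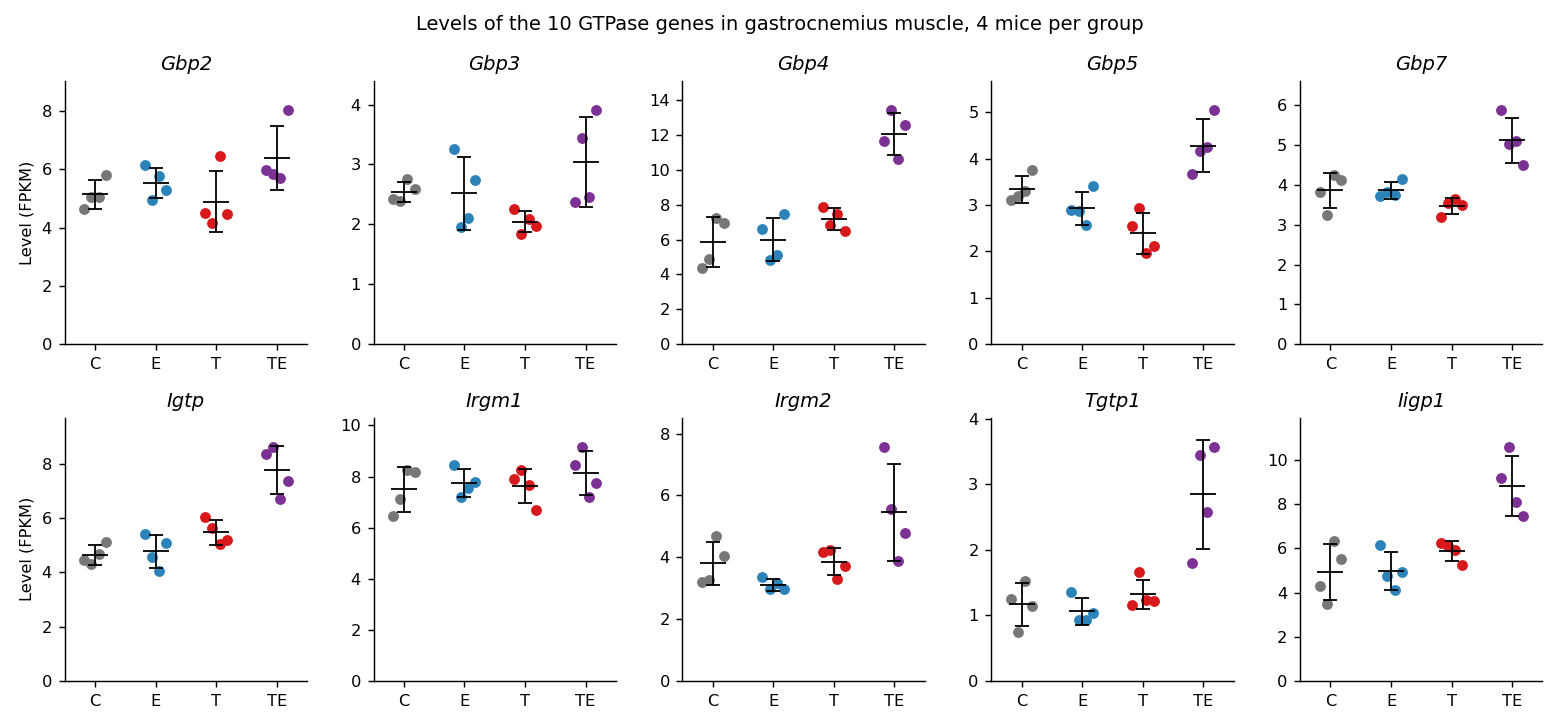
Levels of the 10 genes in FPKM (vertical axes, each starting at 0) in groups C, E, T and TE, with 1 point per mouse, and a bar and whiskers for the mean ± SD of 4 mice. For Gbp4, Gbp7, Igtp, Tgtp1 and Iigp1 the 4 TE points lie above all other points, whereas the Irgm1 points of all groups overlap.

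The comparison of TE with E asked how tumor-bearing and tumor-free muscle differed in trained mice. Of the 10 GTPases, 6 passed the test and all 6 were higher in TE, namely Tgtp1, Gbp4, Iigp1, Irgm2, Igtp and Gbp7, by 1.37-fold for Gbp7 to 2.77-fold for Tgtp1. The edgeR quasi-likelihood test called 0.231% of all tested genes in this comparison (34 of 14749). At an unadjusted p under 0.05, 7 of the 10 passed against 9.23% of all tested genes, and DESeq2 called 7 of the 10 against 1.21%. The median log2 fold change was 0.67 over the 10 genes and 0.003 over all tested genes. TE libraries lay above all E libraries for 7 of the 10 genes, against 2.68% of all tested genes. The TE libraries also enter the comparison of TE with T, which was known when the genes were chosen, so these calls are not independent of the choice.

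Among the IRG genes, Tgtp1 and Iigp1 encode effector proteins that load onto the vacuoles of invading parasites. Tgtp1 was at 0.926, 0.936, 1.03 and 1.36 FPKM in E and at 1.80, 2.57, 3.46 and 3.57 FPKM in TE. The groups did not overlap, and the TE mice differed among themselves by a wider margin than the E mice. The log2 fold change was 1.47 (SE 0.233, edgeR adjusted p = 0.00799). Counted together with its near copy Tgtp2, the log2 fold change was 1.20 (SE 0.214, edgeR adjusted p = 0.0216). Iigp1 was at 4.11, 4.73, 4.94 and 6.15 FPKM in E and at 7.48, 8.09, 9.19 and 10.6 FPKM in TE, again without overlap. Its log2 fold change was 0.88 (SE 0.162, edgeR adjusted p = 0.0311).

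Igtp, Irgm1 and Irgm2 encode the regulatory IRG proteins, which sit on the cell's own membranes and keep the effector proteins away from them. Of these, Igtp and Irgm2 passed the test and Irgm1 did not. Igtp was at 4.04, 4.55, 5.08 and 5.42 FPKM in E and at 6.71, 7.37, 8.37 and 8.61 FPKM in TE, with a log2 fold change of 0.75 (SE 0.113, edgeR adjusted p = 0.00698). Irgm2 was at 2.96 to 3.37 FPKM in E and at 3.88, 4.78, 5.57 and 7.57 FPKM in TE, with a log2 fold change of 0.85 (SE 0.163, edgeR adjusted p = 0.0371). TE replicate 1 was the highest for Irgm2. Irgm1 was at 7.20, 7.54, 7.79 and 8.47 FPKM in E and at 7.20, 7.75, 8.47 and 9.16 FPKM in TE. These groups overlapped almost entirely, and the log2 fold change was 0.12 (95% interval -0.0781 to 0.321, edgeR adjusted p = 0.744).

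Among the GBP genes, Gbp4 and Gbp7 passed. Gbp4 was at 4.82, 5.13, 6.58 and 7.46 FPKM in E and at 10.6, 11.6, 12.6 and 13.4 FPKM in TE, and its log2 fold change was 1.05 (SE 0.155, edgeR adjusted p = 0.00698). Gbp7 was at 3.72, 3.73, 3.83 and 4.16 FPKM in E and at 4.50, 5.03, 5.10 and 5.87 FPKM in TE, with a log2 fold change of 0.46 (SE 0.0916, edgeR adjusted p = 0.0464). Gbp5, which encodes a protein that promotes inflammasome assembly, was at 2.56, 2.87, 2.88 and 3.42 FPKM in E and at 3.68, 4.16, 4.25 and 5.04 FPKM in TE. The Gbp5 groups did not overlap, but the log2 fold change of 0.59 (SE 0.136) did not pass the edgeR test (adjusted p = 0.0962), whereas DESeq2 called it (adjusted p = 0.00837).

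Gbp2 and Gbp3 did not pass. Gbp2, a lipid-anchored protein of pathogen vacuoles, was at 4.95 to 6.14 FPKM in E and at 5.70, 5.84, 5.97 and 8.02 FPKM in TE. The groups overlapped, and TE replicate 4, the library with the highest lymph node sum, stood alone at the top. The log2 fold change was 0.25 (95% interval -0.0125 to 0.518, edgeR adjusted p = 0.568), and 0.15 without TE replicate 4. Gbp3 was at 1.96 to 3.27 FPKM in E and at 2.38 to 3.90 FPKM in TE, with a log2 fold change of 0.32 (95% interval -0.0346 to 0.677, edgeR adjusted p = 0.595), and 0.20 without TE replicate 4.

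How firmly the 6 calls hold differed. Gbp4, Igtp and Tgtp1 passed under every alternative that was run on them, 27, 27 and 28 in number, with a highest adjusted p of 0.0353, 0.0332 and 0.0485. Iigp1 passed under 19, Irgm2 under 16 and Gbp7 under 10 of 27. Without E replicate 2, 3 or 4, or TE replicate 1 or 2, each left out alone, Gbp4, Igtp and Tgtp1 were the 3 genes called, and Iigp1, Irgm2 and Gbp7 were not. Gbp7 also lost its call without C replicate 1, 3 or 4, E replicate 1, T replicate 1, 2 or 4, or TE replicate 3, Irgm2 without C replicate 4 or E replicate 1, and Iigp1 without TE replicate 3. Over all alternatives the adjusted p reached 0.217 for Gbp7 and 0.142 for Irgm2 and Iigp1. Gbp5 passed without T replicate 3 (adjusted p between 0.00837 and 0.419 over its alternatives). With TE replicate 4 left out, 6 of the 10 genes were called. With the 3 lymph node libraries left out 4 were called, with Irgm2 at an edgeR adjusted p of 0.0727 and Gbp7 at 0.0796. The log2 fold changes of Irgm2 and Gbp7 were then 0.96 and 0.51, beside 0.85 and 0.46 with all libraries. If a fold change above 2 was also asked for, Gbp4 and Tgtp1 were left.

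**Figure D2:**
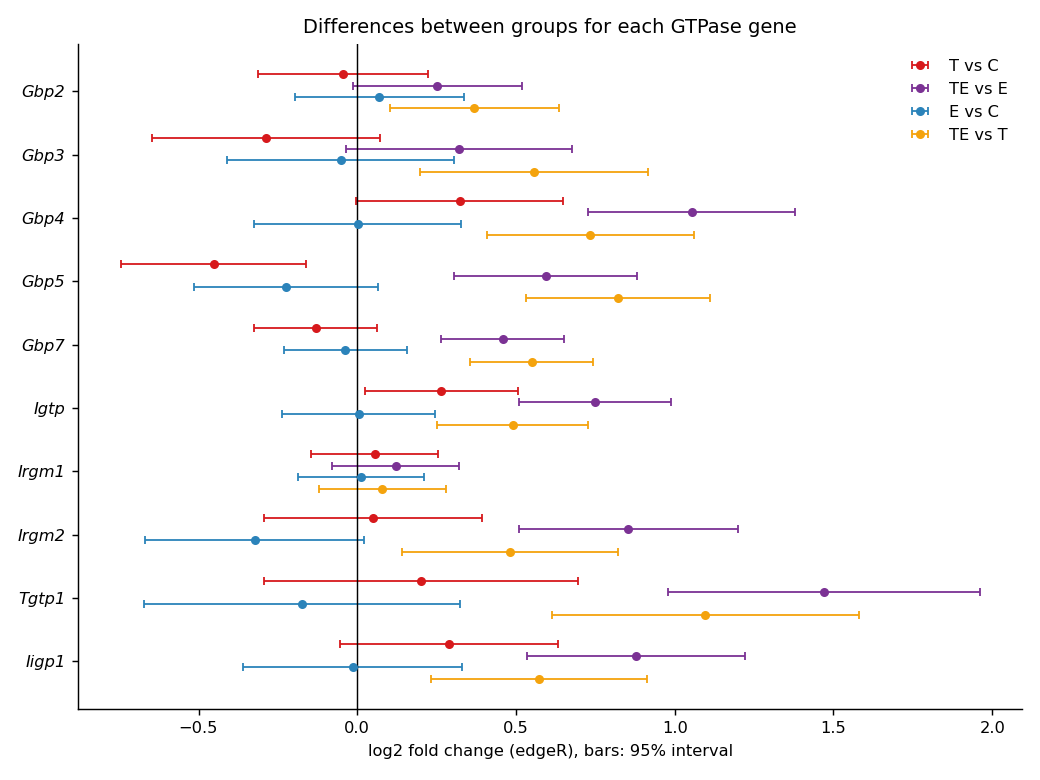
Log2 fold changes of the 10 genes (horizontal axis, edgeR, with 95% intervals as bars) in T vs C, TE vs E, E vs C and TE vs T, 4 mice per group. The TE vs E points lie to the right of 0 for all 10 genes, with Tgtp1 at 1.47 and Irgm1 at 0.12, whereas the E vs C points lie on both sides of 0, from -0.32 for Irgm2 to 0.07 for Gbp2.

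The comparison of T with C asked the same about tumor in untrained mice, and it shares no library with that of TE with E. None of the 10 genes was called, whereas 0.678% of all tested genes were (100 of 14749, 76 higher and 24 lower in T). By DESeq2, 0 of the 10 passed, against 2.86% of all tested genes, and 2 of the 10, Gbp5 and Igtp, had an unadjusted p under 0.05, near the 14.2% of all tested genes. Fitted log2 fold changes had both signs, positive for 6 genes and negative for 4, with a median of 0.05. Gbp5 was at 3.10, 3.19, 3.31 and 3.76 FPKM in C and at 1.96, 2.13, 2.54 and 2.94 FPKM in T. All T libraries were below all C libraries for Gbp5 and for no other of the 10 genes, against 2.83% of all tested genes. The Gbp5 log2 fold change was -0.45 (SE 0.138), and it did not pass (edgeR adjusted p = 0.139). Without T replicate 2 it did, with an adjusted p of 0.0483. Igtp was at 4.30 to 5.12 FPKM in C and at 5.03 to 6.02 FPKM in T, with overlap and a log2 fold change of 0.27 (SE 0.114, edgeR adjusted p = 0.295). Gbp4, at 7.17 ± 0.623 FPKM in T (SD, n = 4) and 5.86 ± 1.44 FPKM in C (SD, n = 4), had a log2 fold change of 0.32 (SE 0.155, edgeR adjusted p = 0.359).

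The comparison of E with C asked for the training difference without tumor. None of the 10 genes was called by edgeR or DESeq2, none had an unadjusted p under 0.05, and 0.0881% of all tested genes were called by edgeR (13 of 14749), 1.9% by DESeq2 and 14.2% at an unadjusted p. Fitted log2 fold changes ran from -0.32 for Irgm2 to 0.07 for Gbp2, with a median of -0.03. Irgm2 was at 3.80 ± 0.698 FPKM in C (SD, n = 4) and 3.12 ± 0.192 FPKM in E (SD, n = 4), with overlap (95% interval of the log2 fold change -0.668 to 0.0215). For Gbp4 and Igtp the fitted values were within 0.01 of 0, with 95% intervals from -0.326 to 0.327 and from -0.237 to 0.246.

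The comparison of TE with T gave the training difference in tumor-bearing mice. Its values for Gbp5 and Gbp7 were in view when the genes were chosen, so the genes are described here without a test. No gene of the 14749 passed in it (0% called by edgeR, 7 genes by DESeq2, 867 genes at an unadjusted p under 0.05). All 10 GTPases had a positive log2 fold change. It was 1.10 for Tgtp1, 0.82 for Gbp5, 0.73 for Gbp4, 0.57 for Iigp1, 0.56 for Gbp3, 0.55 for Gbp7, 0.49 for Igtp, 0.48 for Irgm2, 0.37 for Gbp2 and 0.08 for Irgm1. The median was 0.55, beside 0.001 over all tested genes. TE libraries lay above all T libraries for Gbp4, Gbp5, Gbp7, Igtp, Tgtp1 and Iigp1, against 1.24% of all tested genes. Tgtp1 was at 1.16, 1.22, 1.24 and 1.66 FPKM in T, below its 4 TE values. Gbp7 was at 3.20, 3.49, 3.54 and 3.65 FPKM in T, also below its TE values.

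The interaction asks whether the training difference itself differed between tumor-bearing and tumor-free mice. It contains the comparison of TE with T and is likewise given without a test for the 10 genes. Over all genes 0% were called by edgeR, 20 genes by DESeq2, and 1358 genes had an unadjusted p under 0.05. The interaction log2 value was positive for all 10 genes, from 0.07 for Irgm1 to 1.27 for Tgtp1, with 1.05 for Gbp5 and a median of 0.60. Whether the tumor difference was larger with training than without was therefore not tested for these genes.

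**Figure D3:**
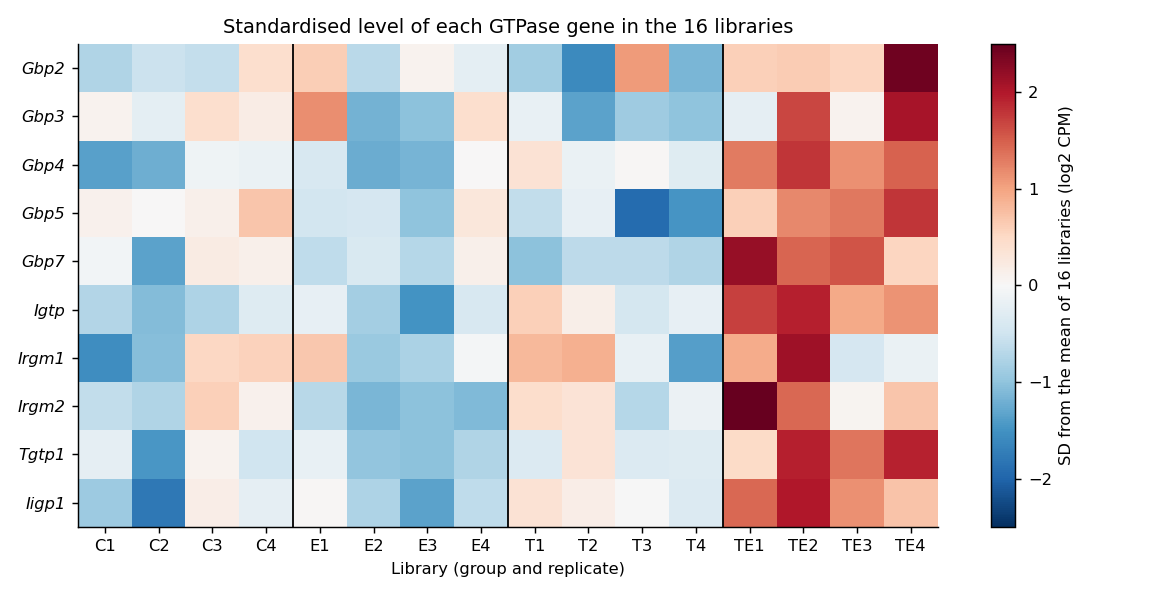
Level of each gene (rows) in each of the 16 libraries (columns, by group and replicate), as SD from the gene's mean log2 CPM over the libraries, in red above and in blue below it. The 4 TE columns are mostly red and the rest mostly pale or blue, with Gbp2 darkest in TE replicate 4 and Irgm2 in TE replicate 1.

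The genes varied together. Over the 16 libraries, all 45 pairs of the 10 genes had a positive Pearson r of log2 CPM, from 0.213 (Gbp2 with Irgm1) to 0.932 (Igtp with Iigp1), with a median of 0.645. After the group means were subtracted, r was positive in 38 of 45 pairs, with a median of 0.39 and a range from -0.278 (Gbp2 with Gbp7) to 0.806 (Irgm1 with Iigp1). The pairs share libraries and sequencing depth, and the values are descriptive. The mean of the 10 standardized levels, a score in SD units, was 0.772 to 1.62 in TE and at most 0.0897 in the other libraries. Summed over the 10 genes, levels were 208 to 251 CPM in TE, 143 to 168 CPM in T, 127 to 156 CPM in E and 126 to 165 CPM in C. Score and sum include Gbp5 and Gbp7, whose higher levels in TE than in T were known at the choice. The separation of TE from T is therefore not independent of the choice.

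Outside the 10 genes, those whose log2 CPM followed the score most closely over the 16 libraries were Tgtp2 (r = 0.897), Nod1 (0.864), H2az1 (0.859), H2-K1 (0.843), Ifi47 (0.801), Plppr3 (0.80), Tap1 (0.787), Vrk1 (0.759), H2-Q4 (0.742) and Clec2d (0.741). After the group means were subtracted, r ran from 0.227 for Vrk1 to 0.849 for Plppr3, with 0.389 for Clec2d and 0.466 for Tap1. Plppr3 was at a low level, with group means of 0.0226 to 0.11 FPKM. Tgtp2 and Ifi47 are IRG genes, and Tgtp2 can share reads with Tgtp1. H2-K1 and H2-Q4 encode MHC class I heavy chains, and Tap1 encodes a subunit of the transporter that feeds peptides to them. Nod1 encodes a sensor of bacterial cell walls. H2-K1 was at 31.0 ± 3.81 FPKM in TE and 20.9 ± 4.06 FPKM in E (SD, n = 4 each), a log2 fold change of 0.62 (SE 0.137) that did not pass the edgeR test (adjusted p = 0.0919), whereas DESeq2 called it (adjusted p = 0.00288). In TE vs E the edgeR adjusted p of these 10 genes ran from 0.0919 to 0.433. They were picked for following a score that is highest in TE, so their TE vs E values are not independent of the choice.

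The rest of the interferon gamma pathway was followed through lists of genes. Of all tested genes, 9.23% had an unadjusted p under 0.05 in TE vs E, and 14.2% each in T vs C and E vs C. Ifng itself, the gene of interferon gamma, had 1 count in all, in 1 of 16 libraries. Of the other genes of interferon gamma signaling, 17 were tested, and edgeR called 0 of them in TE vs E (5 at an unadjusted p under 0.05, 0 by DESeq2), with a median log2 fold change of 0.19. Irf1 had a log2 fold change of 0.37 (SE 0.158, edgeR adjusted p = 0.485) and Nlrc5, an activator of MHC class I genes, one of 0.97 (SE 0.322, edgeR adjusted p = 0.312). The receptor genes Ifngr1 and Ifngr2 had values of -0.06 and 0.12. In T vs C and E vs C edgeR also called 0 of the 17 (3 and 2 at an unadjusted p under 0.05), and DESeq2 called Ptpn11, a phosphatase gene, in each.

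The other GBP genes and the other IRG genes did not pass by edgeR in TE vs E. The median log2 fold change was 0.38 over 4 other GBP genes and 0.74 over 9 other IRG genes. At an unadjusted p under 0.05 there were 3 and 4 genes, against 9.23% of all tested genes. DESeq2 called Gbp2b, Tgtp2 and Gm12250, against 1.21% of all tested genes. Gbp2b, which lies next to Gbp2, was at 3.03, 3.45, 3.56 and 3.77 FPKM in E and 4.32, 4.55, 4.56 and 5.75 FPKM in TE (log2 fold change 0.52, SE 0.107, edgeR adjusted p = 0.0574). Gm12250, the gene of an effector IRG protein, was at 0.202 to 0.471 FPKM in E and 0.627 to 1.25 FPKM in TE (log2 fold change 1.42, SE 0.341, edgeR adjusted p = 0.109). Gbp10 had a negative log2 fold change in TE vs E, -0.44 (SE 0.25, edgeR adjusted p = 0.63), and Irgq, an IRG gene without a known interferon response, was at -0.05 (SE 0.115).

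Other interferon-induced genes were counted in the same way. Over all tested genes, the share at an unadjusted p under 0.05 was 9.23% in TE vs E and 14.2% in T vs C. Of 33 other interferon gamma targets, edgeR called 0 in TE vs E, with 13 at an unadjusted p under 0.05, 2 called by DESeq2 and a median log2 fold change of 0.33. Of 23 genes of the type I interferon response, edgeR and DESeq2 called 0, with 3 at an unadjusted p under 0.05 and a median of 0.02. In T vs C the type I list had a median of -0.24, with 0 called by edgeR and DESeq2 and 5 at an unadjusted p under 0.05. The 10 autophagy conjugation genes whose products direct GBP and IRG proteins to vacuoles had a median of 0.07 in TE vs E (0 called by edgeR and DESeq2, 0 at an unadjusted p under 0.05). Of 8 inflammasome genes that act downstream of GBP proteins, edgeR called 0, DESeq2 called 1, and 2 had an unadjusted p under 0.05, with a median of 0.25.

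**Figure D4:**
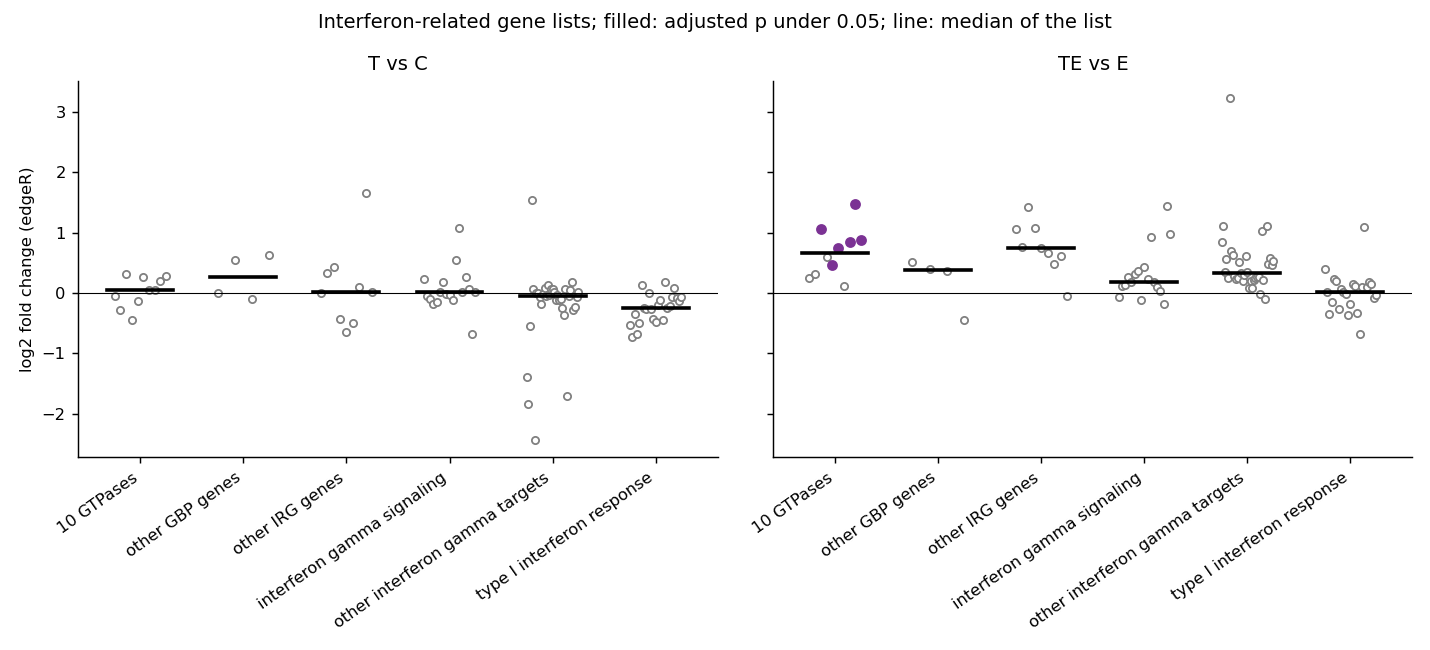
Log2 fold changes of single genes (points, vertical axis) in T vs C (left) and TE vs E (right) for the 10 GTPases and 5 interferon-related lists, filled where the adjusted p was under 0.05, with a line at the median of each list. Filled points appear for 6 of the 10 GTPases in TE vs E and nowhere else, and the median of the type I interferon list lies near 0 in TE vs E.

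Markers of immune cells were set beside the result. In TE vs E, 9.23% of all tested genes had an unadjusted p under 0.05, and DESeq2 called 1.21%. T and NK cell markers (8 of 14 tested) summed to 0.919, 1.08, 2.12 and 30.5 CPM in TE and to 1.72 to 6.80 CPM in E. Of these markers, edgeR and DESeq2 called 0 in TE vs E and none had an unadjusted p under 0.05. Macrophage markers (10 of 10 tested) summed to 98.0 to 188 CPM in TE, 83.5 to 152 CPM in E, 102 to 225 CPM in T and 76.1 to 146 CPM in C. None was called in TE vs E by edgeR or DESeq2, and none had an unadjusted p under 0.05. The highest macrophage sums, in T replicates 3 and 4, went with GTPase scores of -0.406 and -0.707. The next highest, 187.6 CPM in TE replicate 4, went with a score of 1.26. Neutrophil markers (8 of 10 tested) summed to 10.3 to 48.6 CPM in T and 12.9 to 22.1 CPM in TE, against at most 6.07 CPM in C and E. The GTPase scores were -0.707 to -0.0479 in T, 0.772 to 1.62 in TE and -0.949 to 0.0897 over C and E. In TE vs E edgeR called 0 neutrophil markers (6 at an unadjusted p under 0.05, 4 by DESeq2). Endothelial markers summed to 817 to 1040 CPM in TE and 960 to 1080 CPM in E, and these sums overlapped. Of the 10 endothelial genes edgeR called 0 in TE vs E, 3 had an unadjusted p under 0.05, and DESeq2 called Kdr, at 18.6 to 20.6 FPKM in E and 9.03 to 15.4 FPKM in TE without overlap. Fibroblast markers summed to 1200 to 1320 CPM in TE and 1580 to 2070 CPM in E (0 of 8 called in TE vs E by edgeR and DESeq2, 6 at an unadjusted p under 0.05). The part of these cells in the GTPase levels was not tested.

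**Figure D5:**
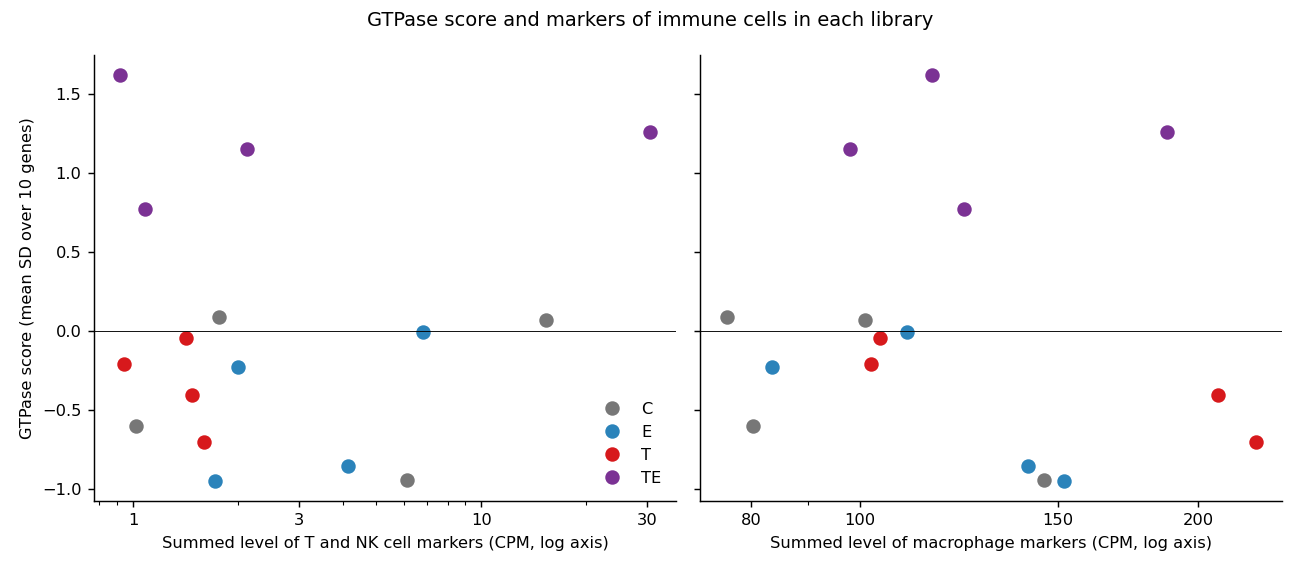
Score of the 10 GTPases (vertical axis, mean SD over the genes) against the summed level of T and NK cell markers (left) and macrophage markers (right) in CPM on log axes, with 1 point per library colored by group. The 4 TE points lie above all others, 3 of them at T and NK cell marker sums of at most 2.12 CPM.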

How the data were processed

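Poly(A) RNA of gastrocnemius muscle was sequenced as read pairs. Per the labels and the study's methods, the authors trimmed reads with fastp 0.20.1, aligned them to GRCm39 with HISAT2 2.1.0 and counted them per gene with HTSeq 0.11.2. The deposited files hold raw counts and FPKM values per gene and mouse, and the annotation release and strand setting are not given in the sources used here. GRCm39 is the C57BL/6J genome, whereas the mice were BALB/c. The kit version differs between the labels and the methods.

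Counts of 16 libraries (35628211 to 37635741) were tested with edgeR 4.0.16 in R 4.3.3 (quasi-likelihood test, TMM factors, filterByExpr, 1 coefficient per group), with Benjamini-Hochberg adjustment over 14749 genes and a call at an adjusted p under 0.05 at any fold change. DESeq2 1.42.0 and limma 3.58.1, the latter on log2(FPKM + 1) and log2(FPKM + 0.1) and with voom weights, were alternatives. FPKM was used for levels. Library CPM values used TMM-scaled totals, and log2 CPM a prior count of 2. Members and lists were chosen with earlier results of these data known. By the naming rule, the 10 members, tested genes of the other GBP, other IRG and signaling lists, called genes of other lists, markers at 0 and the 10 genes most similar to the score may be named. Genes called by DESeq2 alone that are named outside this rule were chosen after their values were seen. Motifs and positions were read with Python 3.11.15 from RefSeq promoters, GRCm39 and GENCODE vM39.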

Additional observations from a re-analysis of the deposited data

Results flagged for a closer look

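Of 40 sets of 4 mice (10 genes in 4 groups), 4 held a mouse whose gap to its nearest neighbor was unusually large for the range of the group, and chance alone marks about 1 in 20 sets. In CPM, the ratio of gap to range was 0.9529 for Gbp2 in TE replicate 4, 0.8293 for Gbp2 in C replicate 4, 0.8424 for Gbp5 in C replicate 4 and 0.9631 for Tgtp1 in T replicate 2, each of them the highest mouse of its group.

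For 3 genes, every mouse moved one way in one contrast and the opposite way in the other, by the side of the comparison group's mean on which each lay. For Gbp5 the log2 difference of TE against E exceeded that of T against C by 1.058, and for Gbp7 by 0.5749. For Irgm2 the log2 difference of TE against T exceeded that of E against C by 0.7563. These are differences of mean log2 CPM and were not tested. Each contains the difference of TE against T, which was in view for Gbp5 and Gbp7 when the genes were chosen.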

How the results depend on the processing

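In TE vs E, 6 of 10 genes were called. Asking for a fold change above 2 gave 2, log2(FPKM + 0.1) gave 3, and leaving out single mice gave 3 to 7. In T vs C, 0 were called, 2 at an unadjusted p under 0.05 and 0 to 1 with single mice left out (Gbp5, without T replicate 2). In E vs C, 0 were called under all 29 alternatives. For TE vs T and the interaction no count of the 10 genes that passed is given, since TE vs T values were in view when the genes were chosen. The log2 fold change of Irgm1 there was -0.0216 and -0.031 without T replicates 3 and 4, and no other gene or alternative gave a negative value. Pairing by replicate number is not given in the labels or the study's methods. Of 24 same-number pairs, 5 had a correlation of deviations over 0.1 (range -0.241 to 0.214). In TE vs T 7 of 8 libraries correlated best with their own number, at r of 0.0551 to 0.107. Such libraries numbered 2 of 8 in T vs C, 0 in TE vs E and 3 in E vs C. With the replicate number as a block, 3 genes, Gbp4, Igtp and Tgtp1, were called in TE vs E, and Iigp1 (edgeR adjusted p = 0.0686), Irgm2 (0.0678) and Gbp7 (0.0917) were not, and the log2 fold change in E vs C was -0.0019 for Gbp4 and -0.0045 for Igtp.

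Over all genes, counts of calls ranged with the alternative from 16 to 2093 in T vs C, 11 to 1361 in TE vs E, 0 to 2092 in E vs C, 0 to 867 in TE vs T and 0 to 1358 in the interaction, the highest in each at an unadjusted p. DESeq2 called 422, 179, 280, 7 and 20.

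Values of genes near 0 changed sign, all without a call, and the cause was not tested. In T vs C with single mice left out, Gbp2 ran from -0.193 to 0.021 and Irgm2 from -0.0226 to 0.151. In E vs C the ranges were -0.201 to 0.0457 for Gbp3, -0.134 to 0.104 for Gbp4, -0.0604 to 0.0808 for Igtp, -0.0385 to 0.0537 for Irgm1 and -0.154 to 0.116 for Iigp1. Without the 3 lymph node libraries, E vs C values were -0.00042 for Gbp2, 0.0177 for Gbp7, -0.0655 for Igtp and 0.0044 for Iigp1. For Gbp4 in E vs C they were -0.0012 by DESeq2, -0.0013 with DESeq2 size factors, -0.0058 with no filter and -0.00075 without T replicates 3 and 4, an alternative chosen after seeing the data, as was summing Tgtp1 and Tgtp2. For Igtp in E vs C they were -0.0028 with no filter and -0.0013 by limma-voom. On log2(FPKM + 1) and log2(FPKM + 0.1) they were 0.0031 and 0.0050 for Gbp7 and 0.032 and 0.041 for Iigp1.

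With 4 mice per group, small differences can be missed, and a gene that did not pass is not shown to be equal between groups.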
